A study of Drosophila melanogaster with 6 samples.

Results

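The 9 chorion protein genes of the fruit fly (Drosophila melanogaster), Cp7Fa, Cp7Fb, Cp7Fc, Cp15, Cp16, Cp18, Cp19, Cp36 and Cp38, were taken by their symbols from a table of 15010 genes, and all 9 were present. Polyadenylated RNA of adult progeny was sequenced in 6 libraries labelled intestine. The 3 InR-DN libraries came from progeny of MTD-GAL4/InR-DN mothers, in which the MTD-GAL4 driver expressed a dominant-negative insulin receptor in the female germline. The 3 control libraries came from progeny of MTD-GAL4/+ mothers. The mothers of both groups carried the driver and were mated to Oregon R males. The progeny themselves can inherit the driver or the receptor transgene, so an effect of the maternal germline and one of an inherited transgene cannot be told apart. The labels give no sex and no age beyond adult. Nothing in them ties a library to its own animals or cross, so the p-values reflect library-to-library spread alone, which may be technical. Values are TPM, a transcript abundance that corrects for gene length and sums to the same value in every library.

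The chorion is the outer eggshell. The somatic follicle cells that surround each developing egg in the ovary secrete the vitelline membrane first and the chorion after it, late in oogenesis. The chorion genes lie in a cluster on the X chromosome and another on the left arm of chromosome 3, and follicle cells amplify both clusters by repeated firing of local replication origins before and during their transcription. Transcription is tightly timed: Cp36 and Cp38 are known as genes of early chorion formation, and Cp15 and Cp18 as genes of its last stages.

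Markers of the ovary, the eye and the gut were abundant in all 6 libraries. The 11 intestine markers summed to 14753 to 21331 TPM in the InR-DN libraries and 20490 to 21832 TPM in controls, and the 9 germline and oocyte markers to 3101 to 4545 TPM in InR-DN libraries and 2517 to 3229 TPM in controls. Without dhd, the most abundant germline marker, the sums were 1411 to 1690 TPM in InR-DN libraries and 1413 to 1617 TPM in controls. The 5 follicle cell markers, Fas3, Cad74A, tj, slbo and mirr, summed to 66.6 to 68.2 TPM in InR-DN libraries and 61.2 to 71.1 TPM in controls. The sum is mostly tj and Fas3 (means of 33.5 and 19.2 TPM), so it does not measure the follicle cells that make the chorion. Among the 5, slbo ran from 0.948 TPM in control replicate 1 to 5.34 TPM in InR-DN replicate 1. The 4 eye markers summed to 3458 to 4773 TPM in InR-DN libraries and 3937 to 4406 TPM in controls, while the 3 male reproductive tract genes in the table lay below 1 TPM everywhere. InR-DN replicate 1 stood at an edge of these lists, with the lowest value of 4 of 4 eye and 5 of 11 intestine markers and the highest of 6 of 9 germline markers. InR-DN replicate 2 had the highest value of 3 of 4 eye markers. Of the 9 germline markers it had the lowest value of 5 and the highest of 2. In such bulk samples, fewer cells of a type and less RNA per cell cannot be told apart.

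In the BDGP6.54 annotation, the X cluster runs over 12.4 kb and holds Cp7Fa, Cp7Fb, Cp7Fc, Cp36 and Cp38 in that order, all on the plus strand. Cp7Fa lies at chrX:8470888-8473087 and Cp38, at the other end, at chrX:8481837-8483311, with Cp36 at chrX:8479319-8480523. The 3L cluster runs over 5.8 kb from Cp18 at chr3L:8726791-8727613 through Cp15 and Cp19 to Cp16 at chr3L:8731944-8732599, also on the plus strand. Neighbours are 749 to 1339 bp apart. Each gene of the X cluster overlaps a gene on the opposite strand, CG33223, whose exons overlap none of the chorion exons and whose own level was 0.642 to 1.52 TPM.

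**Figure D1:**
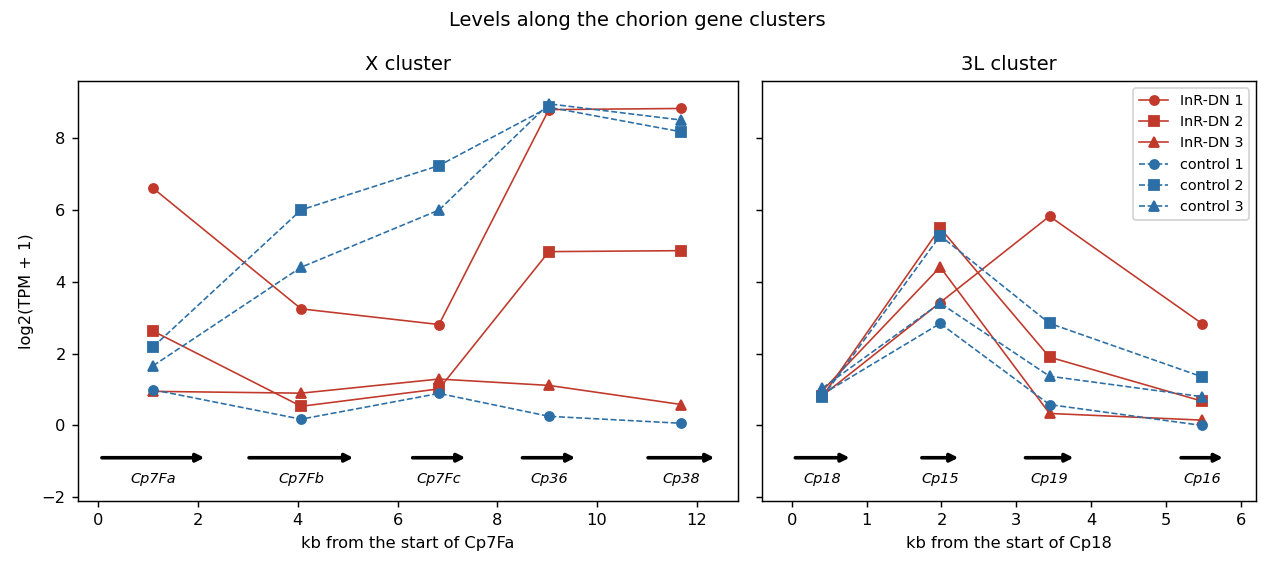
Levels along the X cluster (left) and the 3L cluster (right), as log2(TPM + 1) at the midpoint of each gene against the distance in kb from the start of the first gene, with arrows for the genes. Solid red lines are InR-DN libraries and dashed blue lines controls; neighbouring genes differed widely within a library, and the libraries crossed one another along each cluster.

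Cp36 and Cp38, the major chorion proteins of the X cluster, were among the more abundant transcripts of some libraries and nearly undetected in others of the same group. Cp36 lay at 446, 27.7 and 1.17 TPM in InR-DN replicates 1 to 3, against 0.193, 467 and 498 TPM in control replicates 1 to 3. Cp38 followed the same pattern, at 456, 28.3 and 0.499 TPM in InR-DN replicates 1 to 3 and 0.0431, 290.0 and 364 TPM in control replicates 1 to 3. Each group thus held high and near-absent libraries, and the groups overlapped for both genes. Counted as recovered reads, Cp36 had 8820, 693 and 23 reads in the InR-DN libraries and 4, 12155 and 12897 in the controls. By level Cp36 ranked number 250 of 15010 genes in control replicate 3 and number 12235 in control replicate 1. Between these control libraries Cp36 differed 2581-fold (95% counting interval 1008 to 9475). For Cp38 the ratio of control replicate 3 to control replicate 1, where a single read was counted, was 8444, with a counting interval of 1515 to 333551. Counting intervals here cover counting error only.

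The balance of Cp38 to Cp36 also varied. It was 1.02 (counting interval 0.994 to 1.05) in InR-DN replicate 1 and 1.02 (0.920 to 1.13) in InR-DN replicate 2, against 0.621 (0.604 to 0.639) in control replicate 2 and 0.731 (0.712 to 0.750) in control replicate 3. The other libraries had few reads for this ratio, with 11 reads of Cp38 in InR-DN replicate 3, where it was 0.427 (0.188 to 0.913), and 1 read in control replicate 1. The interval of InR-DN replicate 3 lay below those of InR-DN replicates 1 and 2 and overlapped those of control replicates 2 and 3. The ratio thus did not separate the groups. The difference between groups was not tested, since only InR-DN replicates 1 and 2 and control replicates 2 and 3 gave a ratio with a narrow interval.

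Cp7Fb and Cp7Fc, also genes of the X cluster, were highest in control replicates 2 and 3. Cp7Fc lay at 6.03, 1.03 and 1.45 TPM in InR-DN replicates 1 to 3, against 0.857, 150.5 and 63.2 TPM in control replicates 1 to 3. Cp7Fb lay at 8.51, 0.448 and 0.866 TPM in InR-DN replicates 1 to 3, against 0.129, 63.4 and 20.3 TPM in control replicates 1 to 3. For both genes every InR-DN library lay between control replicate 1 and the other controls, so the groups overlapped. InR-DN replicate 1 was close to control replicates 2 and 3 in Cp36, but below both in Cp7Fb and Cp7Fc. The ratio of Cp7Fc to Cp7Fb was 0.708 (counting interval 0.569 to 0.876) in InR-DN replicate 1, 2.29 (1.24 to 4.28) in InR-DN replicate 2 and 1.68 (0.978 to 2.86) in InR-DN replicate 3. In controls it was 6.66 (2.38 to 22.9, on 18 and 5 reads) in replicate 1, 2.38 (2.27 to 2.49) in replicate 2 and 3.12 (2.88 to 3.38) in replicate 3. Each InR-DN ratio was below each control ratio, but the interval of InR-DN replicate 2 overlapped those of all 3 controls and that of InR-DN replicate 3 overlapped those of control replicates 1 and 2. The difference between groups was not tested.

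Cp7Fa, the first gene of the X cluster, and Cp19 and Cp16 of the 3L cluster were highest in InR-DN replicate 1. Cp7Fa lay at 96.7, 5.19 and 0.932 TPM in InR-DN replicates 1 to 3, against 0.991, 3.57 and 2.17 TPM in control replicates 1 to 3. Cp19 lay at 56.0, 2.74 and 0.261 TPM in InR-DN replicates 1 to 3, against 0.497, 6.19 and 1.59 TPM in control replicates 1 to 3. A single library set the InR-DN mean of both genes, while InR-DN replicate 3 was the lowest of all 6. Within the InR-DN group Cp7Fa differed 104-fold between replicates 1 and 3 (counting interval 64.6 to 178), and Cp19 214-fold on 646 and 3 reads (73.0 to 1042). Cp16 lay at 6.16, 0.599 and 0.109 TPM in InR-DN replicates 1 to 3 (57, 7 and 1 reads). In control replicates 1 to 3 it lay at 0, 1.56 and 0.744 TPM (0, 19 and 9 reads). The level of 0 in control replicate 1 allows up to 3 reads, or 0.310 TPM. Against that floor Cp16 was 19.9-fold higher in InR-DN replicate 1 than in that library. This is no lower bound, since the lower end of the 95% counting interval of the ratio was 15.7.

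Cp15 and Cp18, the genes known from the last stages of chorion formation, followed none of these patterns. Cp15 lay at 9.75, 44.3 and 20.3 TPM in InR-DN replicates 1 to 3, against 6.17, 38.1 and 9.63 TPM in control replicates 1 to 3. It was the one chorion gene above 1 TPM in all 6 libraries, with 59 to 511 reads, and InR-DN replicate 2 and control replicate 2 were its highest. Cp18 lay at 0.782, 0.757 and 0.960 TPM in InR-DN replicates 1 to 3 and at 0.830, 0.726 and 1.06 TPM in control replicates 1 to 3. With 9 to 16 reads per library, no difference between libraries was detectable at this depth: the highest library exceeded the lowest 1.46-fold, with a counting interval of 0.638 to 3.49. Cp18 sits next to Cp15, with 867 bp between them.

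**Figure D2:**
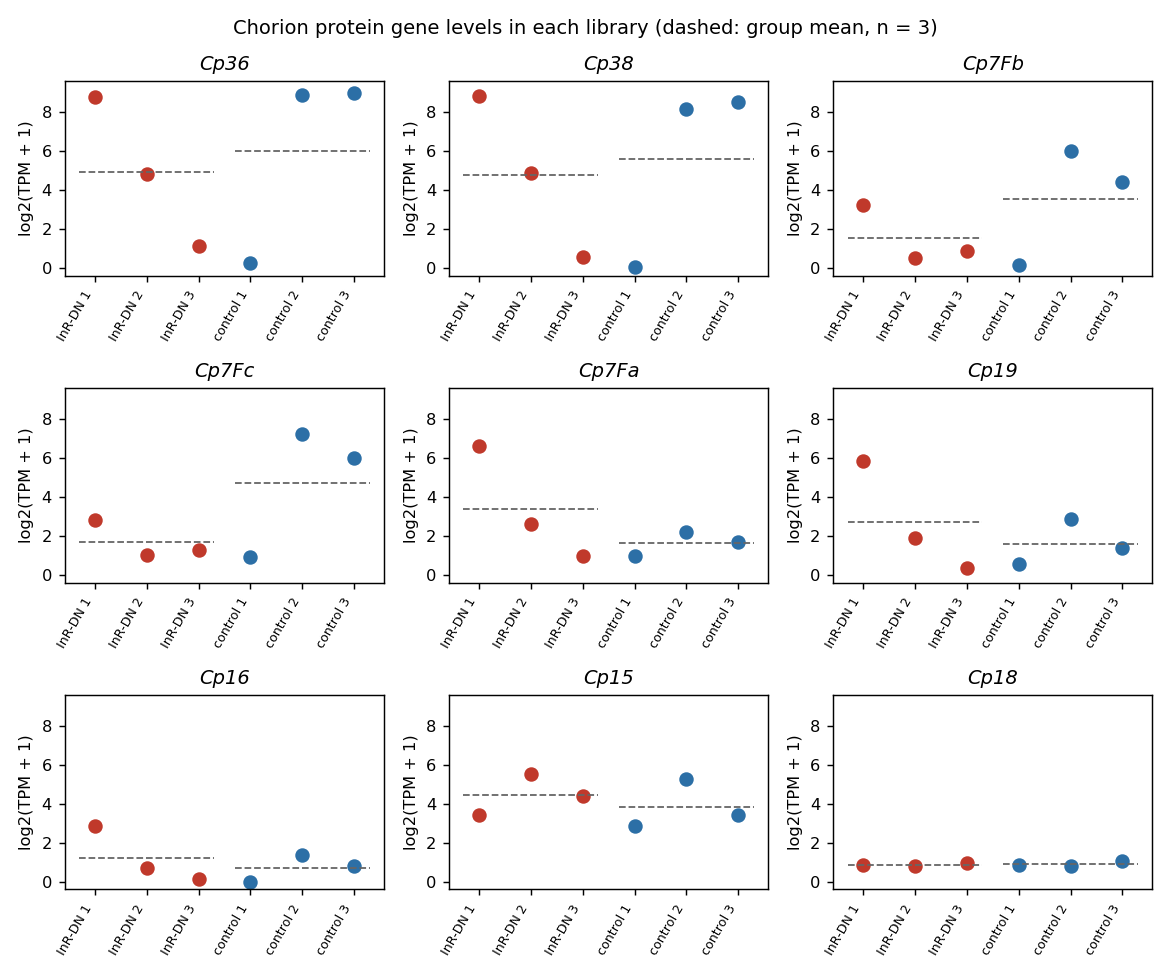
Level of each chorion gene in every library as log2(TPM + 1), with InR-DN libraries in red, controls in blue and dashed lines for group means (n = 3). Cp36 and Cp38 ran from near 0 to almost 9 on this scale within the control group, Cp7Fa, Cp19 and Cp16 stood out in InR-DN replicate 1, and Cp18 was flat.

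The summed level of the 9 genes was 1085, 111 and 26.6 TPM in InR-DN replicates 1 to 3, against 9.71, 1021 and 961 TPM in control replicates 1 to 3. The group means were 408 ± 588 TPM in InR-DN progeny and 664 ± 567 TPM in controls (SD, n = 3 each), with much of the spread inside each group. The make-up changed with the sum, which is in part built in, since Cp36 and Cp38 made up most of the high sums. The X cluster gave 93.3% of the summed TPM in InR-DN replicate 1, against 95.4% in control replicate 2 and 98.6% in control replicate 3, the 3 libraries with high sums. It gave 56.4% in InR-DN replicate 2, 18.5% in InR-DN replicate 3 and 22.8% in control replicate 1, where Cp15 was the leading transcript with 39.9%, 76.5% and 63.6% of the sum. The level of Cp36 was 45.7 times that of Cp15 in InR-DN replicate 1 and 0.0574 times in InR-DN replicate 3, against 51.8 times in control replicate 3 and 0.0313 times in control replicate 1.

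**Figure D3:**
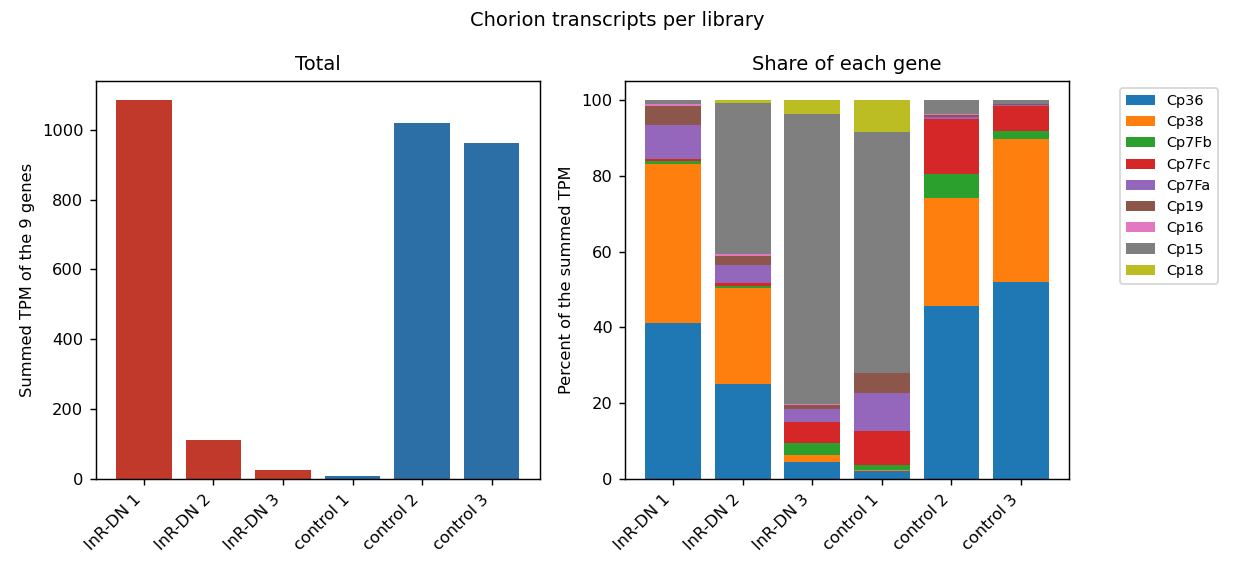
Summed TPM of the 9 chorion genes per library (left; InR-DN in red, controls in blue) and the percent of that sum from each gene (right). The 3 libraries with sums of 961 to 1085 TPM were made up mostly of Cp36 and Cp38, and the libraries with sums of 9.71 and 26.6 TPM mostly of Cp15.

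Likeness was measured as the root mean square difference of log2(TPM + 1), with each gene centred on its own mean, over 6 libraries; it was smallest for Cp36 and Cp38 (0.28), then for Cp7Fa and Cp19 (0.48) and for Cp7Fb and Cp7Fc (0.65), of 36 pairs. Cp7Fa and Cp19 lie on different chromosomes. Cp36 and Cp15 (3.65) were among the pairs furthest apart. Low genes such as Cp16 and Cp18 can only reach small values of this measure relative to each other.

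Set against the 10816 genes that reached 1 TPM in 3 or more libraries, the chorion genes that passed this filter (7) ranked from number 1 to number 166 by their range. The range of log2(TPM + 1) over the 6 libraries was 8.77 for Cp38 and 8.71 for Cp36, numbers 1 and 2 of 10816, where the median gene had a range of 0.38. Cp7Fc was number 7, Cp7Fb 16, Cp7Fa 18, Cp19 20 and Cp15 166. The pooled SD within groups was 4.47 for Cp38 and 4.46 for Cp36, against 0.14 for the median gene. Cp16 and Cp18 did not pass, with 0.744 and 0.830 TPM in the library ranked number 3 for each; Cp19, the lowest that passed, had 2.74 TPM there.

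No chorion gene was called different between the groups. In limma on log2(TPM + 1), with Benjamini-Hochberg adjustment over all genes tested, 0 of the 7 chorion genes passed an adjusted p of 0.05 and 0 had an unadjusted p under 0.05. Over all 10816 genes 0 were called (0%) and 341 had an unadjusted p under 0.05. limma voom on recovered reads called 0 of 8 chorion genes, 0 with an unadjusted p under 0.05, and 0 genes in all (336 with an unadjusted p under 0.05). The groups overlapped for every chorion gene, against 6.36% of all genes tested whose groups did not overlap. An exact permutation test of 3 against 3 libraries cannot go below p = 0.1.

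The fold changes were large for some genes, but so were their errors. The smallest unadjusted p of the limma fit belonged to Cp7Fc (0.0970), whose log2 fold change was -3.01 (standard error, SE, 1.56; adjusted p of 1.00). Its means were 2.84 ± 2.77 TPM in InR-DN progeny and 71.5 ± 75.2 TPM in controls (SD, n = 3 each). The log2 ratio of these means was -4.66, which differs from the fitted value because the fit averages log2(TPM + 1) within each group. The fitted value of Cp7Fc ran from -4.92 without control replicate 1 to -1.74 without control replicate 2. Its neighbour Cp7Fb was at -1.97 (SE 1.495), and ran from -3.65 to -0.73 without the same libraries. Cp7Fa was at 1.78 (SE 1.32). Its means were 34.3 ± 54.1 TPM in InR-DN progeny and 2.24 ± 1.29 TPM in controls, a log2 ratio of 3.93. Without InR-DN replicate 1 the fitted value of Cp7Fa was at 0.17, and without InR-DN replicate 3 at 3.00. Cp19 was at 1.09 (SE 1.36), and at -0.48 without InR-DN replicate 1. Cp36 was at -1.11 with an interval from -7.80 to 5.58, and Cp38 at -0.82 with one from -7.52 to 5.88, so the data bound neither gene closely. Both signs turned without InR-DN replicate 3 (Cp36 0.79, Cp38 1.27), without control replicate 2 (0.31 and 0.48) and without control replicate 3 (0.36 and 0.64). Cp15 was at 0.60 (SE 0.74), at 0.07 without InR-DN replicate 2 and at 1.32 without control replicate 2. The filter left out Cp16 and Cp18; fitted with no filter, they were at 0.50 and -0.03 (SE 0.73 and 0.09).

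**Figure D4:**
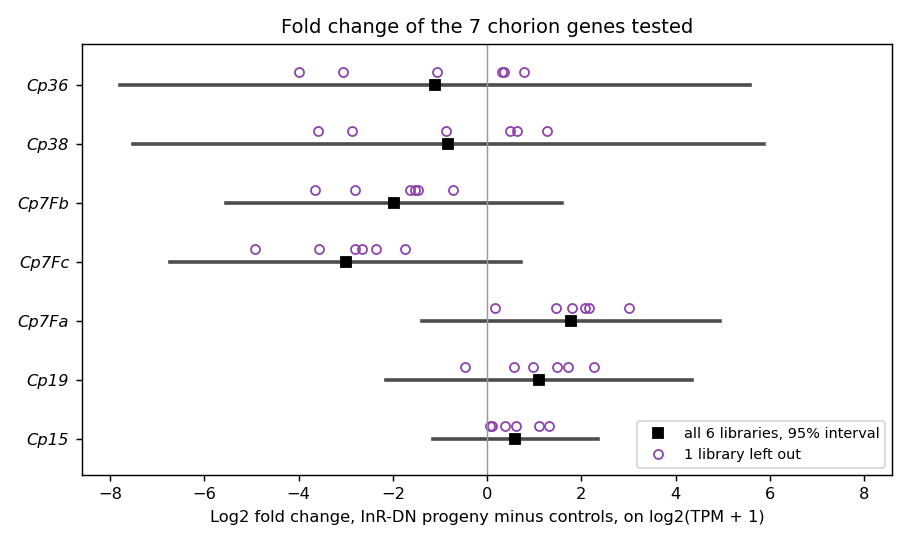
Log2 fold change of the 7 chorion genes tested, InR-DN progeny minus controls on the log2(TPM + 1) scale, with 95% limma intervals (lines) and the values with 1 library left out (open circles). Every interval crossed 0, and the circles of Cp36, Cp38 and Cp19 fell on both sides of it.

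Vitelline membrane genes, which follicle cells transcribe before the chorion genes, also varied widely, but in another order of libraries. The sum of the 6 genes was 173, 933 and 631 TPM in InR-DN replicates 1 to 3, against 198, 769 and 42.2 TPM in control replicates 1 to 3. Control replicate 3, which had the highest Cp36, was the lowest library for 6 of 6 vitelline membrane genes, and InR-DN replicate 2 the highest for 5 of 6. Vm26Aa, the most abundant, lay at 69.1, 317 and 215 TPM in InR-DN replicates 1 to 3, against 83.0, 295 and 14.4 TPM in control replicates 1 to 3. Vm32E lay at 7.01, 99.5 and 74.1 TPM in InR-DN replicates 1 to 3, against 3.02, 47.8 and 0.346 TPM in control replicates 1 to 3. Vml lay at 8.28, 104.6 and 38.9 TPM in InR-DN replicates 1 to 3, against 5.29, 70.4 and 0.589 TPM in control replicates 1 to 3. Control replicate 2 was high in both kinds of eggshell transcript. Control replicate 1 was low in the chorion genes, and its vitelline membrane sum was close to that of InR-DN replicate 1. For Vm32E and Vml it lay below InR-DN replicate 1 and above control replicate 3. None of the 6 was called in either direction; 6 had higher means in InR-DN progeny, with a median log2 fold change of 1.43 against 0.01 over all genes tested, and without control replicate 3 the median was 0.44.

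Among 13 other eggshell genes in the table, 11 were tested and 0 called, 6 with higher and 5 with lower means in InR-DN progeny (median log2 fold change 0.09). The yellow family genes yellow-g and yellow-g2, which follicle cells express, had the widest ranges of these. yellow-g2 lay at 3.27, 0.250 and 0.198 TPM in InR-DN replicates 1 to 3, against 0.0376, 82.2 and 99.97 TPM in control replicates 1 to 3. yellow-g lay at 19.6, 2.86 and 1.349 TPM in InR-DN replicates 1 to 3, against 1.80, 64.6 and 84.8 TPM in control replicates 1 to 3. Both were high in the same controls as Cp7Fb and Cp7Fc. The eggshell gene dec-1 also varied widely but in another order. It lay at 6.61, 103.9 and 53.1 TPM in InR-DN replicates 1 to 3, against 3.04, 102.2 and 13.2 TPM in control replicates 1 to 3. The peroxidase gene Pxt, the most abundant of the list, stayed within 285 to 402 TPM in InR-DN libraries and 303 to 365 TPM in controls.

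Genes of the replication machinery that amplifies the chorion clusters, and of its E2F and Myb regulators, moved far less than the chorion genes. Their 21 members summed to 1910, 1285 and 1663 TPM in InR-DN replicates 1 to 3, against 1431, 1405 and 1751 TPM in control replicates 1 to 3, and 0 of 21 were called (18 with higher and 3 with lower means in InR-DN progeny, median 0.07). Over all 10816 genes tested, 5901 had higher means in InR-DN progeny, with a median of 0.01. The sign of the median of the 21 hung on a single library: it turned to -0.06 once InR-DN replicate 1 was dropped. Dropping any other library kept it positive, from 0.03 (control replicate 2 dropped) to 0.25 (InR-DN replicate 2 dropped). These replication genes are used in dividing cells of any tissue. InR-DN replicate 1, where Cp7Fa and Cp19 were highest, was the highest library for 20 of 21 of them, and InR-DN replicate 2 the lowest for 20 of 21; the part of this in the chorion values was not tested. Orc1, a subunit of the origin recognition complex, lay at 89.1, 47.9 and 73.5 TPM in InR-DN replicates 1 to 3, against 54.4, 53.9 and 80.9 TPM in control replicates 1 to 3. CycE, the cyclin of S phase entry, lay at 106, 55.0 and 86.3 TPM in InR-DN replicates 1 to 3, against 63.6, 59.7 and 96.2 TPM in control replicates 1 to 3. The most abundant was geminin, an inhibitor of origin licensing, at 145 to 224 TPM in InR-DN libraries and 160 to 206 TPM in controls.

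Follicle cell transcription factors varied little as a sum, and slbo and cas varied most among them. The 12 genes summed to 214 to 231 TPM in InR-DN libraries and 224 to 231 TPM in controls, a 1.08-fold range over the libraries in which the chorion sum ranged 112-fold. That sum is weighted to abundant members such as usp, ttk and tj (means of 59.6, 44.0 and 33.5 TPM over the 6 libraries). How much of it came from follicle cells cannot be told in libraries that also hold gut and eye RNA. None of the 12 was called, 5 having higher and 7 lower means in InR-DN progeny (median -0.08). The ecdysone receptor partner usp, the most abundant, lay at 50.6 to 66.5 TPM in InR-DN libraries and 56.0 to 65.4 TPM in controls. slbo, a C/EBP factor of migrating and late follicle cells, lay at 5.34, 1.31 and 5.12 TPM in InR-DN replicates 1 to 3, against 0.948, 3.97 and 1.49 TPM in control replicates 1 to 3. cas, a zinc finger factor, lay at 1.503, 1.53 and 2.17 TPM in InR-DN replicates 1 to 3, against 4.68, 1.44 and 1.62 TPM in control replicates 1 to 3. The yolk protein genes Yp1, Yp2 and Yp3, expressed in the fat body as well as in follicle cells, summed to 11997 to 15905 TPM in InR-DN libraries and 13576 to 16474 TPM in controls, and 0 of 3 were called.

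**Figure D5:**
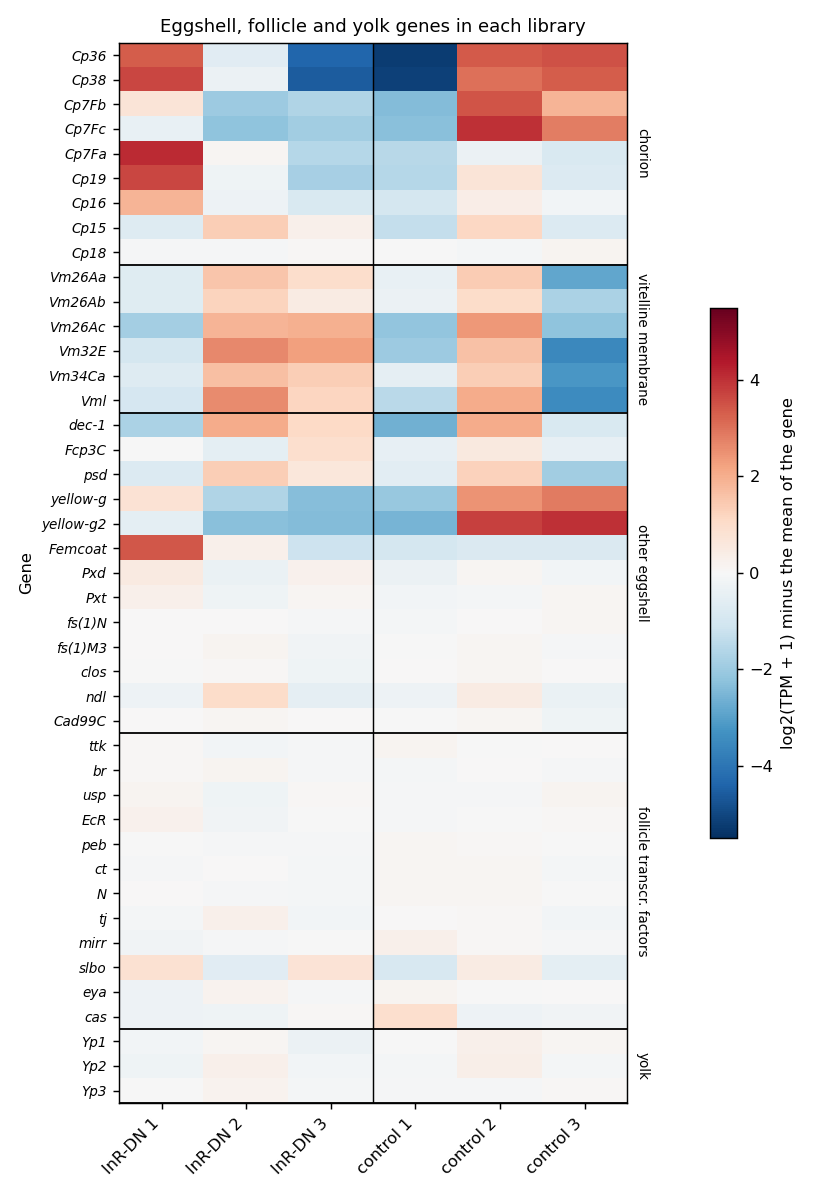
Deviation of log2(TPM + 1) from the mean of each gene over the 6 libraries (colour) for chorion, vitelline membrane, other eggshell, follicle cell transcription factor and yolk genes (rows), with InR-DN libraries left of the line and controls right of it. Chorion and vitelline membrane genes changed between libraries of the same group in different orders, while the yolk genes and the factors other than slbo and cas stayed near 0.

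Outside the clusters, the genes whose pattern was most like the mean pattern of the 9 chorion genes were CG15570 (root mean square difference 0.79 over 6 libraries), CG1077 (0.83), CG11381 (0.87), CG4009 (0.98), yellow-g (1.04), CG42819 (1.12), CG13113 (1.12), CG15023 (1.14), snoRNA:Me28S-C3420b (1.15) and snoRNA:Me5.8S-G74 (1.15). CG4009 illustrates the pattern, at 24.1, 1.17 and 0 TPM in InR-DN replicates 1 to 3, against 0, 36.8 and 42.1 TPM in control replicates 1 to 3. Both snoRNA genes were low, from 0.592 to 4.71 TPM for snoRNA:Me28S-C3420b and from 0 to 3.97 TPM for snoRNA:Me5.8S-G74. Counting error in their likeness was not assessed. Since the chorion genes followed several patterns, the nearest gene to each was also taken, a choice made after the values were seen. It was CG5846 for Cp18 (0.03), CG13113 for Cp16 (0.34), Ir7c for Cp15 (0.39), CG13083 for Cp7Fa (0.54), yellow-g2 for Cp7Fc (0.56), yellow-g for Cp7Fb (0.67), CG13114 for Cp36 (1.45) and CG4009 for Cp38 (1.56). For Cp19 it was CG43965 (0.70). The small value for Cp18 is one between flat genes. After Ir7c, an ionotropic receptor gene, the genes nearest to Cp15 were CG13998 (0.53), yellow-k (0.57), the vitelline membrane organiser psd (0.58) and the vitelline membrane gene Vm26Ab (0.59).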

How the data were processed

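The authors deposited a single table, whose columns hold TPM for 15010 genes, per the file headers. The submitters' processing notes name TopHat and edgeR, with neither version nor role. The authors' build, annotation and use of strand in counting are not stated there. Columns were assigned by group letter and replicate number. Because TPM is tied to the total of each library, a large gain in some genes lowers the others.

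Reads were recovered as TPM times exon length (BDGP6.54) divided by the value of 1 read. They were whole (tolerance 0.0001 reads or 1e-06 of the value) for 14071 genes from all exons and for 133, Cp7Fa included, from a single transcript, together 95.6% of the 14857 genes with a length. They summed to 31910745 to 39855766 per InR-DN library and 33655571 to 42443220 per control library. Floors of 3 reads per library and 95% exact binomial or Poisson intervals cover counting error only.

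The test was limma (version 3.58.1, R 4.3.3, trended variance) on log2(TPM + 1), a scale that understates changes of low genes. It took the 10816 genes that reached 1 TPM in 3 or more libraries; group was the only term. The voom fit took genes with 10 or more reads in 3 or more libraries. The fit was tested on simulated data. Alternatives are in the closing section. Members and gene lists were chosen with earlier results of these data known. Named were all members, the most abundant and the 2 widest-ranging genes of each list (fewer where genes repeat or are shown by the sum), and the 10 genes most like the members; others are values beside a result. Promoter sequences were not analysed here.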

Additional observations from a re-analysis of the deposited data

How the results depend on the processing

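With a pseudocount of 0.1 or 5, without a filter or with one at 5 TPM, under median-of-ratios and quantile scaling, rescaling without eggshell and yolk genes, no trend, voom on recovered reads, the replicate block and leaving out each library, 0 chorion genes and 0 genes of the other eggshell, amplification, follicle factor and yolk lists were called. Over all genes the count was 0 in the limma fit of all libraries, 1 with a pseudocount of 0.1, and 0 to 3 with 1 library left out (3 without control replicate 2). Cp7Fa, Cp7Fb, Cp7Fc and Cp15 kept their sign wherever they were fitted, though the filter at 5 TPM left out Cp7Fa and Cp19. Leaving out 1 library gave 0.17 to 3.00 for Cp7Fa, -3.65 to -0.73 for Cp7Fb, -4.92 to -1.74 for Cp7Fc and 0.07 to 1.32 for Cp15, all without a change of sign, and -0.48 to 2.27 for Cp19, -4.00 to 0.79 for Cp36 and -3.58 to 1.27 for Cp38 (log2), and the cause of the change of sign was not tested. Across all genes tested there was no sign that the replicate numbers pair the samples: same-numbered libraries had residual correlations of -0.41, -0.18 and -0.13. With 3 libraries per group these values cannot exclude a pairing. With the replicate block the count of calls was 0, Cp7Fc was at -3.01 (SE 1.60) and Cp15 at 0.60 (SE 0.17), with limma adjusted p of 1.00 for both. No InR-DN library correlated best with the control of its own number. Depth limits Cp16 and Cp18, with at most 57 and 16 reads in a library.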
